A study of Bos taurus with 4 samples.

Results

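The C/EBP family (CCAAT/enhancer-binding proteins) was followed in the semitendinosus muscle, a large muscle of the hind limb, of bulls of a beef and a dairy breed. Its members on the arrays were *cebpa*, *cebpb*, *cebpd*, *cebpg* and *cebpz*, chosen as the probes whose reference accession belongs to 1 of these 5 bovine genes. There were 10 such probes of 43653 non-control probes, and 5 such genes of 11054 genes with a name: 2 probes for *cebpa*, 2 for *cebpb*, 1 for *cebpd*, 3 for *cebpg* and 2 for *cebpz*. The gene *cebpd* was selected on its measured log ratio between the samples of each array, which was large, so its values are described here without a test, while the relatives were taken by their family name.

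The study compared muscle of Hereford (HER) bulls, a beef breed that yields much meat and much fat, with muscle of Holstein-Friesian (HF) bulls. HF is a dairy breed and served as the reference. Each of 4 Agilent bovine arrays carried 1 HER and 1 HF bull, so that 4 bulls of each breed, all aged 15 months and with no treatment named in the labels, were compared. The arrays are called array 1 to array 4 after the biological replicate number in the labels. The muscle was frozen after slaughter and had been freed of visible connective and fat tissue, and what was measured is the RNA of the whole tissue piece, in which more cells of a type and more RNA per cell cannot be told apart.

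C/EBP proteins are transcription factors that bind DNA as dimers through a basic region and a leucine zipper (bZIP), with one another or with other bZIP proteins. C/EBPα keeps differentiated cells such as adipocytes and liver cells in their mature state, C/EBPβ and C/EBPδ are induced rapidly by cytokines and glucocorticoids and drive acute-phase genes and the early steps of fat cell formation, and C/EBPγ, which lacks a strong activation domain, mostly acts through its dimer partners. In muscle, C/EBPβ is known from satellite cells, which it keeps from differentiating, and C/EBPδ from wasting conditions and the induction of myostatin. CEBPZ shares the name but not the bZIP structure: it is a CCAAT-binding protein of the nucleolus. In the RefSeq table of the ARS-UCD2.0 assembly *cebpa* and *cebpg* are adjacent protein-coding genes, and *cebpz* overlaps a gene named *cebpzos*.

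All signed values below are the log2 ratio of the Cy5 sample over the Cy3 sample. By the dye labels the Cy3 sample was HER and the Cy5 sample HF on every array, but the descriptions of the same arrays mention a swap of dyes that makes HF the reference. The direction the study gives for *c4a*, *fst* and *mstn*, for the latter genes also by qPCR, which does not use these dyes, is the one that holds if Cy5 was HER. Read by the dye labels, the signs here therefore oppose the study's. The labels and the study's directions are thus at odds, so the values are given by dye and not by breed, and since the arrays had 1 dye orientation, dye and breed cannot be told apart. Median signals per array were 129 to 160.5 in Cy5 and 77 to 138 in Cy3 over a median background of 37 to 41, no spot was saturated, and the number of arrays limits the precision. Markers of the labelled tissue were bright in both dyes: 10 of 12 muscle fibre genes were tested. Their summed normalized signal was 1879900 to 2116430 in the Cy5 bulls and 1584370 to 1769010 in the Cy3 bulls, without overlap. By gene, limma called 0 of the 10 at an adjusted p under 0.05. Their mean log2 ratios ran from −0.69 to 0.71, with 8 of the 10 above 0.

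The single *cebpd* (CEBPD) probe was far brighter in the Cy5 sample than in the Cy3 sample on each of the 4 arrays. Its median signal in Cy5 was 32751, 37005, 16243 and 37635.5 on arrays 1 to 4, over backgrounds of 40.5 to 44. In Cy3 it was 748.5, 639.5, 821 and 2587.5, over backgrounds of 35 to 42. The probe was thus well above background in all 8 bulls, and its log2 ratio is a measured difference and not a bound. After background correction and normalization within each array (normexp and loess) the log2 ratios were 3.89, 3.92, 3.25 and 3.20, with a mean of 3.57 ± 0.39 (SD, n = 4), or 11.8-fold. Arrays 1 and 2 lay above arrays 3 and 4, and the spread of 0.39 was larger than the 0.21 that was the median SD over all tested probes. No other *cebpd* probe was on the array to set beside it.

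The 2 channels of *cebpd* did not vary alike. The normalized log2 scale brings the average signal of the 2 dyes to a common distribution over the arrays and leaves their ratio unchanged. On it, Cy5 stood at 14.59, 14.35, 13.34 and 14.49 on arrays 1 to 4. Cy3 stood at 10.71, 10.43, 10.09 and 11.28. The lowest Cy5 bull was 2.05 above the highest Cy3 bull, so the groups were apart by more than the range within either. The Cy5 bull of array 3 was the low one of its group, by 1.01 from its nearest neighbour, and its Cy3 partner was also the lowest of the Cy3 bulls, while the smaller ratio of array 4 went with the highest Cy3 signal.

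**Figure D1:**
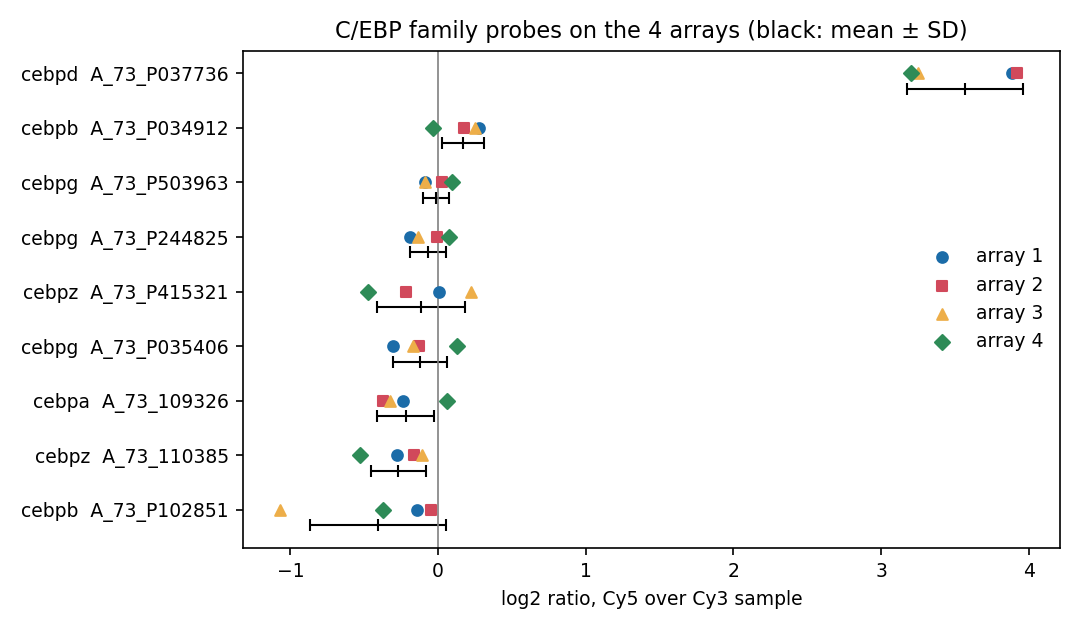
Log2 ratio of the Cy5 over the Cy3 sample (x axis) of the 9 C/EBP family probes that passed the filter on dim probes (y axis, gene and probe), with a coloured symbol for each of the 4 arrays and a black bar for the mean ± SD. The *cebpd* probe lies between 3.20 and 3.92, and no probe of a relative lies above 0.28 on any array.

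Of the 9 probes of the relatives, 8 passed the filter on dim probes and were tested, and limma called 0 of these 8 at an adjusted p under 0.05, against 3.31% of all 32606 tested probes (1.96% as higher and 1.35% as lower in Cy5). At an unadjusted p under 0.05 there was 1, a *cebpz* probe, and a separate-channel fit also called 0. At the criterion of the study's methods, which takes p values up to 0.05 without adjustment and asks for a 1.3-fold difference, the methods' t-test passed 0 of the 8, against 8.85% of all tested probes. The probe that did not pass was the dim *cebpa* probe, with signals of 49 to 66 over backgrounds of 33 to 40. It was well above background in 1 bull, the Cy5 bull of array 2, and has no usable ratio. With the *cebpd* probe, which passed the filter too, 9 of the 10 family probes had a usable ratio.

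For *cebpa* (CEBPA), the bright probe (A_73_109326) gave signals of 52366 to 57512 in Cy5 and 18528 to 30466 in Cy3. Its log2 ratios were −0.24, −0.37, −0.32 and 0.06 on arrays 1 to 4, a mean of −0.22 ± 0.19 (SD, n = 4), with an adjusted p of 0.241 from limma and a 95% interval of −0.46 to 0.02. Array 4 ran the other way from the other 3. The normalized signals of the Cy5 and Cy3 bulls overlapped, at 14.94 to 15.17 and 14.96 to 15.41. This master regulator of mature fat and liver cells thus differed by less than the test could tell from 0, and the interval bounds the difference at well below that of *cebpd*.

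For *cebpb* (CEBPB), the relative closest to *cebpd* in how it is induced, the bright probe (A_73_P102851) gave log2 ratios of −0.14, −0.05, −1.07 and −0.37. The mean was −0.41 ± 0.46 (SD, n = 4), with an adjusted p of 0.232 from limma and an interval of −0.85 to 0.03. Array 3 stood apart with the largest negative ratio, and its Cy5 bull, the one with the lowest *cebpd* in Cy5, also had the lowest normalized *cebpb* signal in Cy5, 12.84 against 13.59, 13.69 and 13.73 in the others. Without array 3 the mean was −0.19. A dim *cebpb* probe (A_73_P034912), with signals of 77 to 198, gave 0.28, 0.18, 0.25 and −0.04, a mean of 0.17 ± 0.14 and an adjusted p of 0.300. The signs of the means of the 2 *cebpb* probes were opposite, neither was called, and while the Cy5 signal of the dim probe was also lowest on array 3, at 7.12, its ratio there was not low.

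For *cebpg* (CEBPG), the bZIP partner without a strong activation domain, 3 probes gave nearly the same values. The brightest (A_73_P035406) read −0.31, −0.13, −0.17 and 0.13, a mean of −0.12 ± 0.18 (SD, n = 4), with an adjusted p of 0.50 from limma and an interval of −0.36 to 0.12. The other 2 had means of −0.07 ± 0.12 and −0.01 ± 0.09, and in each of the 3 probes array 4 was the highest and array 1 the lowest. Of the family, *cebpg* was the gene measured by the most probes.

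For *cebpz* (CEBPZ), the nucleolar CCAAT-binding protein, the brighter probe (A_73_110385) read −0.28, −0.16, −0.11 and −0.53. The mean was −0.27 ± 0.19 (SD, n = 4), negative on 4 of 4 arrays, with an unadjusted p of 0.0330, an adjusted p of 0.162 from limma and an interval of −0.51 to −0.03. The other probe (A_73_P415321) read 0.00, −0.22, 0.22 and −0.48, a mean of −0.12 ± 0.30 and an adjusted p of 0.627. Both probes were lowest on array 4, while on array 3 they had opposite signs.

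The sign of the relatives' ratios depended on the normalization. In the background-subtracted signals, before any normalization, the bright *cebpa* probe was 2.86, 3.05, 1.72 and 1.85 times as bright in Cy5 as in Cy3. The raw ratio of *cebpd* on the same arrays was 45.8, 61.8, 20.8 and 14.8. With median centring of the arrays in place of loess, the median of all tested probes moved from 0.01 to 0.24. The bright *cebpa* probe moved to 0.63 and the brightest *cebpg* probe to 0.53. Of the 8 relatives' probes, 4 were then called, all as higher in Cy5. Among all 32606 tested probes 10013 were then called as higher and 712 as lower, so nothing is read from the 4. No direction can therefore be given for *cebpa*, *cebpb*, *cebpg* or *cebpz*. The ratio of *cebpd* under the same centring was 4.29.

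**Figure D2:**
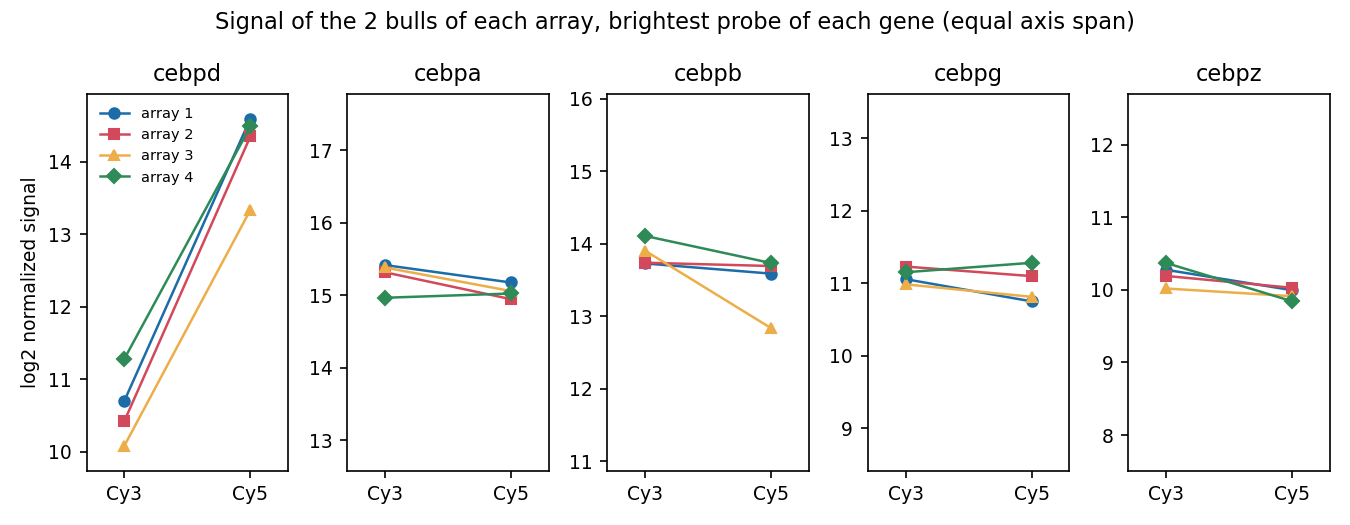
Normalized log2 signal (y axis, each panel spanning the same range) of the Cy3 and the Cy5 bull of each array (x axis) for the brightest probe of each C/EBP gene, with a line joining the bulls of 1 array. The *cebpd* lines rise from between 10.09 and 11.28 in Cy3 to between 13.34 and 14.59 in Cy5, and the Cy3 and Cy5 ranges of *cebpa*, *cebpb*, *cebpg* and *cebpz* overlap, in *cebpb* and *cebpz* only just.

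The ratio of *cebpd* was also set against those of its relatives within the same array. Since *cebpd* was selected for its large ratio on these arrays, a large distance follows from that choice and is no further result. Subtracting the log2 ratio of a relative from that of *cebpd* removes what an array does to both probes. Over the 8 tested probes of the relatives and the 4 arrays these differences ran from 3.00 to 4.32. The smallest mean difference was that to the dim *cebpb* probe, 3.40 ± 0.34 (SD, n = 4), and the largest that to the bright *cebpb* probe, 3.97 ± 0.31. The order of the arrays changed with the relative: against the bright *cebpa* and the 3 *cebpg* probes array 4 gave the smallest distance, against the bright *cebpb* probe array 3 gave the largest, 4.32. These are differences between ratios of different probes, and they say nothing about which C/EBP transcript was the more abundant.

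Among all tested probes, the mean ratio of *cebpd* was the third from the top. The 2 probes above it, neither with a gene name, had means of 3.91 and 3.67 but SDs of 2.30 and 2.13, and the unnamed probe next below it had 3.56 with an SD of 1.96. Their arrays thus disagreed by several fold, where those of *cebpd* spanned 0.72 on the log2 scale. The unnamed probes at ranks 5 and 6 had means of 3.05 and 2.99 with SDs of 0.80 and 0.33. A narrow spread was thus not particular to *cebpd*. The middle 95% of the tested probes lay between −0.66 and 0.69, and the means of all 8 tested probes of the relatives fell inside this band.

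**Figure D3:**
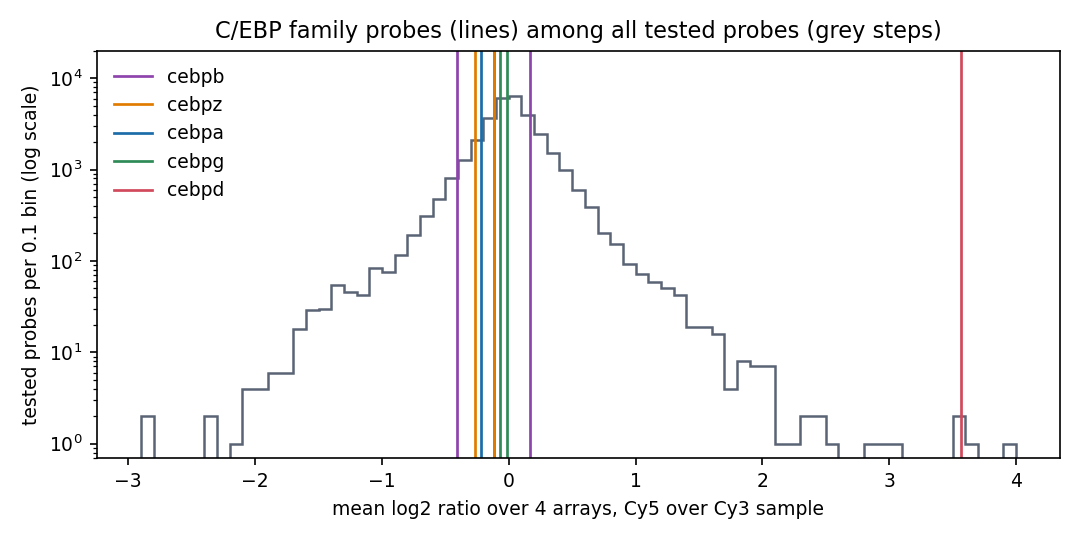
Number of tested probes (y axis, log scale) per bin of 0.1 in mean log2 ratio of Cy5 over Cy3 (x axis), with a vertical line for each C/EBP family probe that passed the filter. The lines of *cebpa*, *cebpb*, *cebpg* and *cebpz* stand in the central peak, between −0.41 and 0.17, and that of *cebpd* at 3.57 in the far right tail.

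The genes around the C/EBP factors were gathered in 7 lists by role, each gene read by its brightest tested probe. Of their 184 genes 140 were tested, and 15 were called by limma at an adjusted p under 0.05, 12 higher and 3 lower in Cy5. Among the 12, *ptgs2* passed the filter on dim probes only through Cy5, the dye in which it is higher. Over all 9425 named genes tested, 4.42% were called, 2.91% as higher and 1.52% as lower. The median log2 ratio of the listed genes was 0.09 beside 0.02 for all named genes. The lists were drawn up with earlier results of these arrays known, and nothing is read from how the count compares with these shares. The share of all named genes at an unadjusted p under 0.05 is not given. Nothing is therefore read from the counts of list or marker genes at that threshold. The 15 called genes kept their sign under each alternative setting that gave a value, but few calls held without a full set of arrays. Without array 1, 2, 3 or 4 there were 3, 1, 1 and 0 genes called as higher and 0 as lower. Calls over all tested probes fell as well, from 639 higher to 65, 19, 5 and 4. Those lower fell from 439 to 31, 19, 0 and 1. The drop was thus not particular to these genes. At its own criterion the methods' t-test passed 32 of the 140 genes, against 11.3% of all named genes, and after adjustment it passed no probe on the arrays, so that its adjusted counts say nothing about these genes. With median centring 65 genes were higher and 4 lower, while 10013 of all 32606 tested probes were called as higher and 712 as lower. Nothing is read from the list counts under that setting.

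Of the bZIP partners and the Tribbles regulators of C/EBP proteins, 17 of 23 were tested, 1 was higher, 1 lower and 15 were not called, with a median log2 ratio of 0.34. The gene that was higher was *trib1*, a pseudokinase that directs C/EBPα to degradation, with 1.57, 0.79, 0.59 and 1.47 on arrays 1 to 4, a mean of 1.11 ± 0.49 (SD, n = 4) and an adjusted p of 0.0441. The one that was lower was *hlf*, a bZIP factor of the PAR group, with −0.44, −0.37, −0.34 and −0.48 and an adjusted p of 0.0499, just inside the threshold. Its mean of −0.41 became −1.25 with the scanner's processed signals, and the dimmer *hlf* probe read −0.16. *fos* and *atf3*, dimer partners of the AP-1 and ATF groups, had the 2 largest means of the list, with far wider spreads. For *fos* the arrays read 3.02, 3.65, −0.69 and 5.27, a mean of 2.81 ± 2.52 with an adjusted p of 0.129. For *atf3* they read 4.46, 2.10, −0.51 and 2.20, a mean of 2.06 ± 2.03 with an adjusted p of 0.155. In both, array 3 was the low array and the only one below 0, and it also held the Cy5 bull with the lowest *cebpd*. The other AP-1 partners *jund* at 0.79 ± 0.44 and *jun* at 0.68 ± 0.56 were not called. *ddit3*, which encodes the C/EBP inhibitor CHOP, had a mean of 0.86 ± 0.44 and an adjusted p of 0.0566, and *atf4*, the stress-induced partner of C/EBPγ, 0.14 ± 0.26 and 0.527. The probe of *cebpe*, the myeloid relative, was not well above background on enough arrays and was not tested.

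Of the signals known to induce *cebpb* and *cebpd*, 22 of 33 genes were tested, 1 was higher, 0 were lower and the median was 0.16. The called gene was *nfkbia*, the NF-κB inhibitor that NF-κB itself induces, with 2.19, 1.12, 1.38 and 1.12, a mean of 1.45 ± 0.51 (SD, n = 4) and an adjusted p of 0.0328, and its 3 other tested probes read 1.21, 1.69 and 1.29. At an unadjusted p under 0.05 there were 8 genes. Among them *hsd11b1*, the enzyme that regenerates active glucocorticoid, had 0.66 ± 0.28 with an adjusted p of 0.0512, and the NF-κB subunit *rela* 0.49 ± 0.23 with 0.0635. *stat3*, which carries the interleukin 6 signal to the *cebpd* promoter, had 0.40 ± 0.33 with an adjusted p of 0.148, and its other 4 probes lay between −0.09 and 0.07. The STAT3 target *socs3* read 0.11 ± 0.15 with an adjusted p of 0.505, and the glucocorticoid target *fkbp5* 0.35 ± 1.38 with 0.722, ranging from −0.73 to 2.33 over the arrays. The inducing cytokine *il1b* had a mean of −0.83 ± 0.63 with an adjusted p of 0.104, while its 3 dimmer probes read 0.01, 0.21 and 0.12.

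Of the acute-phase and complement genes with known C/EBP-dependent control, 22 of 28 were tested, 5 were higher and 0 lower. The median of the 22 was 0.11, so the calls came from part of the list. Complement supplied 3 of the calls: *c4a*, an early component of the cascade, had a mean of 2.37 ± 0.38 (SD, n = 4, adjusted p = 0.0101), *cfd*, the factor D protease that adipocytes also make, 1.49 ± 0.26 (0.0145), and *cfb*, factor B of the alternative pathway, 1.54 ± 0.71 (0.0441). The other 2 were *itih4*, an acute-phase protease inhibitor, at 1.03 ± 0.34 (0.0331) and the prostaglandin synthase *ptgs2* at 0.95 ± 0.43 (0.0472), each with a dimmer probe near 0, at −0.04 and 0.05. Of *c4a* 2 of 5 probes read below 1, at 0.79 and 0.42, and of *cfb* 1 of 3, at 0.15. The *ptgs2* probe was well above background in Cy3 on 1 of the 4 arrays. It passed the filter on dim probes only through Cy5, the dye in which it is higher, so nothing is read from its call. Its mean was 2.04 with plain background subtraction and 3.55 with the scanner's processed signals, where *cfb* stood at 2.54 and 2.56. *c3*, the central complement protein, had 0.90, 1.29, 1.83 and 3.19 with an adjusted p of 0.0568. Of its 8 tested probes, the others read 1.59, 1.22, 0.29, 0.90, 0.22, 0.18 and 0.08. Uncalled too were *a2m*, a protease inhibitor, at 1.12 ± 0.74 and *ptx3*, a pentraxin, at 0.99 ± 0.89, both positive on 4 of 4 arrays. Other acute-phase proteins had means near or below 0. *hp* (haptoglobin) read −0.02 ± 0.09, *lbp* (the lipopolysaccharide-binding protein) −0.71 ± 0.32 with an adjusted p of 0.0508, and *saa3* (serum amyloid A) −1.03 ± 1.18 with 0.209. *crp*, *saa4* and *fgg* were not above background on enough arrays to be tested.

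Beside the complement genes and *cebpd*, macrophage markers had the higher summed signal in Cy5. Of 10 such markers 8 were tested, 1 was called, *cd5l* at 2.07 ± 0.35 with an adjusted p of 0.0134, and 7 had a positive mean, with a median of 0.71. The dimmer *cd5l* probe read 0.30 with an adjusted p of 0.0897 from limma. The summed normalized signal of the 8 macrophage markers was 7365 to 15999 in the Cy5 bulls and 3792 to 6361 in the Cy3 bulls, without overlap. This was not particular to them. The sums of the acute-phase, the adipogenic and the myostatin and wasting lists, and of the muscle fibre markers, were also higher in Cy5 without overlap. At an unadjusted p under 0.05 there were 6 of the 8 macrophage markers. The methods' t-test at its own criterion passed 3, against 11.3% of all named genes, and nothing is read from either count. The complement genes *c1qa* and *c1qb*, which macrophages make, read 1.15 ± 0.79 and 1.11 ± 0.62, the scavenger receptor *cd163* 0.50 ± 0.17, *aif1* 0.74 ± 0.72 and the growth factor receptor *csf1r* 0.68 ± 0.71. *cd68* read 0.08 ± 0.25 and *cd14* −0.04 ± 0.16, with a dimmer *cd14* probe at 0.63, and none of these 7 was called. The part of these cells in the *cebpd* ratio was not tested. Granulocyte markers, with summed signals of 1529 to 2173 in Cy5 and 1400 to 1908 in Cy3, and erythroid markers, with 17581 to 24531 and 13033 to 28255, overlapped, and 0 of the 5 and 0 of the 4 tested were called, with 1 and 0 at an unadjusted p under 0.05 and 1 and 0 by the methods' t-test at its own criterion. Endothelial markers overlapped too, at 4100 to 6396 in Cy5 and 3549 to 5290 in Cy3.

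**Figure D4:**
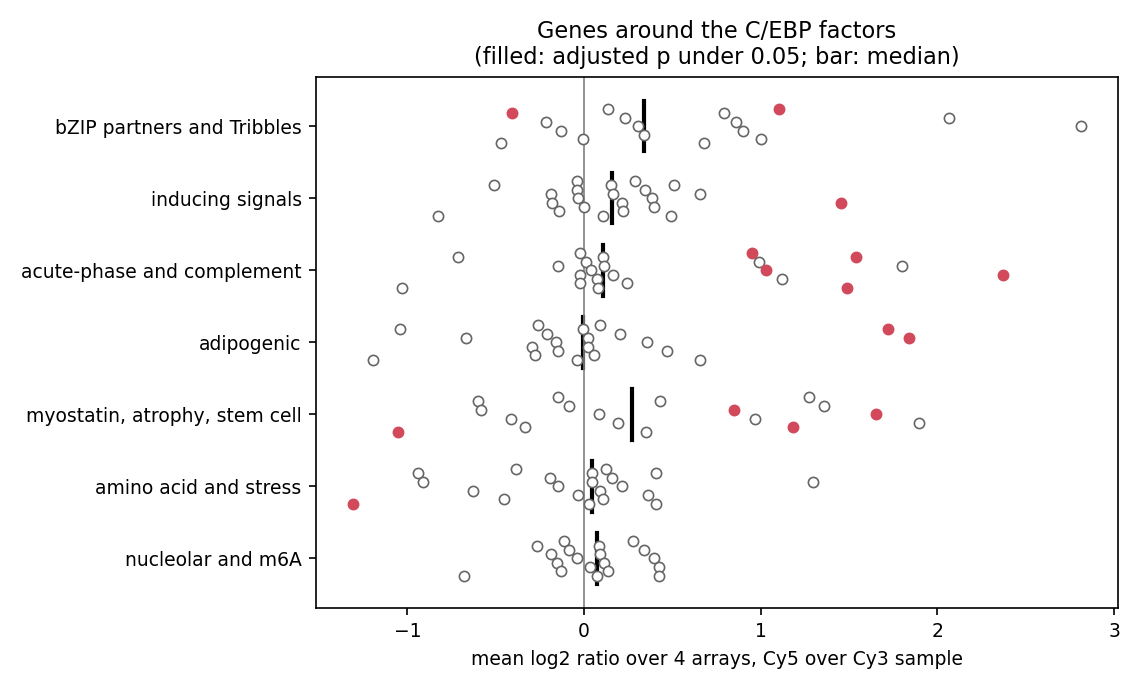
Mean log2 ratio of Cy5 over Cy3 over the 4 arrays (x axis) of each tested gene in the 7 lists around the C/EBP factors (y axis), with filled circles for genes called at an adjusted p under 0.05 and a black bar for the median of the list. The 15 called genes fall in 6 lists, where uncalled genes such as *fos* and *c3* lie as far out, and the medians of all 7 stay between −0.00 and 0.34.

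Of the adipogenic factors and adipocyte genes listed around C/EBP proteins, 21 of 26 were tested, 2 were higher, 0 lower and the median was −0.00. Both called genes encode Krüppel-like factors, *klf15* at 1.72 ± 0.45 (SD, n = 4, adjusted p = 0.0233), a glucocorticoid-induced factor of muscle and fat metabolism, and *klf4* at 1.84 ± 0.75 (0.0383), which acts ahead of *cebpb* early in fat cell formation. The dimmer probe of *klf15* read 0.31 and that of *klf4* 1.18. *pparg*, the nuclear receptor that *cebpb* and *cebpd* switch on and that works with *cebpa*, read 0.15, 0.26, −0.13 and 0.08, a mean of 0.09 ± 0.16 with an adjusted p of 0.592. Some genes of mature adipocytes had negative or small means. *scd*, a fatty acid desaturase, read −1.04 ± 0.58 with an adjusted p of 0.0598. *fabp4*, a fatty acid carrier, read −1.19 ± 1.06 with 0.129, and *lep* (leptin) 0.02 ± 0.13. Other genes of the list were positive and uncalled, such as *slc2a4* at 0.65 ± 0.44 with 0.0877 and *dgat2* at 0.36 ± 0.60 with 0.387. Of the 21 tested genes 10 had a positive mean. Of the 6 adipocyte markers 5 were tested and 0 were called, with 1 at an unadjusted p under 0.05, and their summed signal overlapped at 1764 to 6422 in Cy5 and 4145 to 7072 in Cy3. Of the fibroblast markers, with summed signals of 30823 to 51652 in Cy5 and 44231 to 85361 in Cy3, *col1a1* at −2.05 and *col3a1* at −1.68, both fibrillar collagen genes, were called as lower (adjusted p of 0.0290 and 0.0368 from limma). The other 4 fibroblast markers were not called, *lum* at −0.77, *pdgfra* at 0.49, *dcn* at 0.42 and *thy1* at 0.30.

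Of the genes of the myostatin axis, muscle wasting and muscle stem cells, 18 of 25 were tested, 3 were higher, 1 lower and the median was 0.27. *mstn* (myostatin, which holds back muscle growth and whose promoter C/EBPδ can activate) had −1.03, −0.86, −1.71 and −0.61, a mean of −1.05 ± 0.47 (SD, n = 4) with an adjusted p of 0.0449. Its antagonist *fst* (follistatin) had 1.42, 1.77, 0.64 and 0.91, a mean of 1.18 ± 0.51 with an adjusted p of 0.0425. The ratios of *mstn* and *cebpd* thus had opposite signs on each of the 4 arrays, but *cebpd* was selected for its large ratio on them. A link between these genes was not tested. *gadd45b*, a stress-induced growth arrest gene, was higher at 1.65 ± 0.43 (0.0241), as was the metallothionein *mt1a* at 0.85 ± 0.35 (0.0433). The dimmer *gadd45b* probe read 0.55 with an adjusted p of 0.0941 from limma. Of the ubiquitin ligases of muscle wasting, *trim63* (MuRF1) read 1.79, 1.93, 0.66 and 0.71 with an adjusted p of 0.0558, while *fbxo32* (atrogin-1) read −0.38, −1.03, 0.78 and 0.97 with 0.910. The stem cell and differentiation factors *myf5* at −0.34 ± 0.24, *myod1* at −0.08 ± 0.19 and *myog* at −0.58 ± 1.01 were not called.

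Of the amino acid and oxidative stress response genes listed around ATF4 and C/EBPγ, 21 of 24 were tested, 0 were higher, 1 was lower and the median was 0.04. The called gene was *slc3a2*, the heavy chain of amino acid transporters, with −1.67, −0.55, −1.97 and −1.05, a mean of −1.31 ± 0.64 (SD, n = 4) and an adjusted p of 0.0491. *asns* (asparagine synthetase), a textbook target of the pair, read −0.17, 0.12, −0.93 and −2.78 with an adjusted p of 0.285, and the mTOR inhibitor *ddit4* 1.29 ± 0.76 with 0.0619. Of the nucleolar and m6A genes, the setting in which CEBPZ works, 19 of 25 were tested and limma called 0, with 5 at an unadjusted p under 0.05 and 3 by the methods' t-test at its own criterion. Their median was 0.07, and their means ran from −0.68 for *nop16* (adjusted p = 0.0650) to 0.42 for *rrp1* (0.0611), both nucleolar proteins of ribosome assembly. The nucleolar list was the narrowest of the 7, and *cebpz* at −0.27 lay within its range.

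The genes whose normalized signal followed that of *cebpd* most closely over the 8 bulls were *retreg1*, *csrp1*, *pcolce2*, *medag* and *rnf43*, the highest 5 by Pearson r of 9417 named genes compared. Their r with *cebpd* was 0.987, 0.985, 0.980, 0.975 and 0.971, and over the same bulls the brightest probe of *cebpa* had −0.69, *cebpz* −0.66, *cebpb* −0.40 and *cebpg* −0.24. These r describe 8 points that fall in 2 groups, the Cy3 and the Cy5 bulls of 4 shared arrays. Any gene with a steady positive ratio therefore scores high, and one with a steady negative ratio scores low. The negative r of the relatives go with their negative mean ratios and are no further result. Within 1 dye, over 4 bulls, the r of the 5 genes ran from 0.76 to 0.98 in Cy5 and from 0.40 to 0.98 in Cy3. In each of the 6 genes, *cebpd* included, the Cy5 bull of array 3 had the lowest Cy5 signal, and in 5 of the 6, all but *pcolce2*, the Cy3 bull of array 3 had the lowest Cy3 signal, which is part of what they were chosen for.

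*retreg1*, a receptor for the degradation of endoplasmic reticulum by autophagy, had log2 ratios of 1.91, 1.95, 1.88 and 2.06, a mean of 1.95 ± 0.08 (SD, n = 4). The arrays differed little, and its other tested probe read 1.80 ± 0.06. *pcolce2*, which enhances the processing of procollagen, had 1.60, 2.31, 1.53 and 1.94, a mean of 1.84 ± 0.36, and *medag*, a gene linked to fat cell formation, 1.55, 1.58, 0.95 and 0.88, a mean of 1.24 ± 0.37. Like *cebpd*, *medag* had its larger ratios on arrays 1 and 2. *csrp1*, a LIM-domain protein of the cytoskeleton, had 0.57 ± 0.05, but its other 2 tested probes read 0.00 and 0.15. *rnf43*, a ubiquitin ligase that dampens Wnt signalling, was a dim probe, well above background in Cy3 on 1 of the 4 arrays, with a ratio of 0.14 ± 0.04, which limma did not call (adjusted p = 0.288), so that its place among the 5 rests on small differences in a weak signal.

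**Figure D5:**
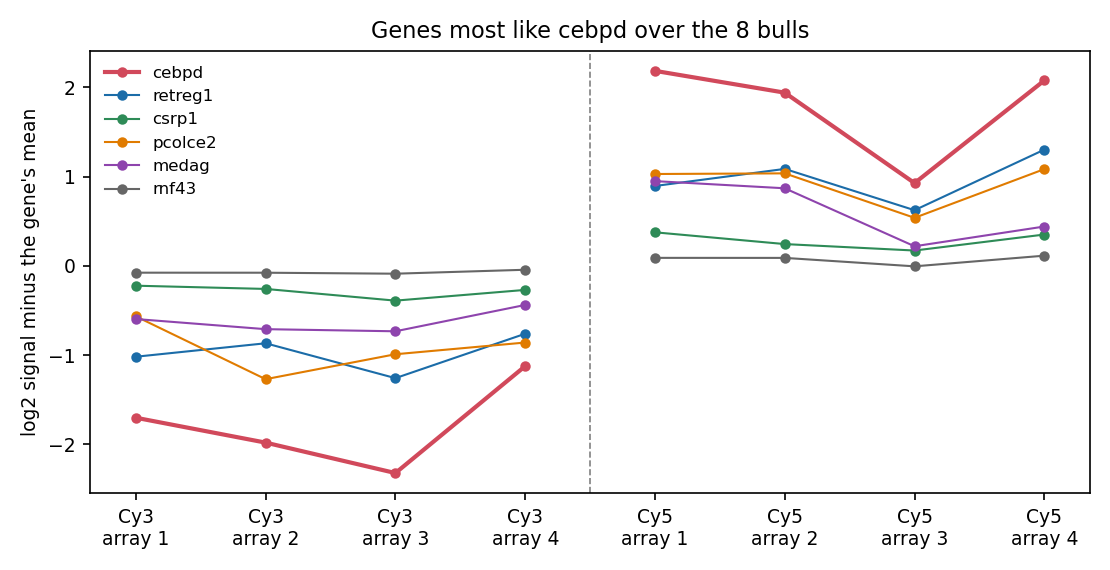
Normalized log2 signal minus the gene's own mean (y axis) in the 4 Cy3 and the 4 Cy5 bulls (x axis) for *cebpd* and the 5 genes with the highest Pearson r with it. The *cebpd* line has the widest step between the Cy3 and the Cy5 bulls, and the signal of *cebpd* in Cy5 is lowest on array 3, at 13.34.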

How the data were processed

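The deposited intensity columns hold the median signal and median local background of each spot, which Feature Extraction 10.7.3.1 had read. The log10 ratios of the deposited series table equal those of the scanner files on every array and have a median of 0. Background was corrected by normexp (offset 50), each array was loess-normalized (weight 0 for control spots), outlier-marked spots were left out and spots of a probe averaged. Probes well above background in the same channel on all 4 arrays, with values on at least 3, were tested as log2 ratios against 0 (limma 3.58.1, R 4.3.3, two-sided, Benjamini-Hochberg over all probes, threshold 0.05; tested on simulated data). Signals per channel were scaled by Aquantile, and markers and lists summed over them. Levels were not compared between probes.

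Symbols came from RefSeq accessions (23492 probes), and other probes are unnamed here. Named were all family probes, per list up to 6 called and some uncalled genes, and the 5 genes most like *cebpd*. Members and lists were chosen with earlier results of these data known. Alternatives covered background, signal, centring, filter, moderation, test, channel model, probe averaging and leaving out each array.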

Additional observations from a re-analysis of the deposited data

Results flagged for a closer look

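In *gadd45b*, array 3 stood apart from the other arrays: its log2 ratio was 1.00, against 1.82 to 1.93 on the others, and the gap took 0.886 of the whole range, over Dixon's critical value of 0.829 for 4 samples. In *rnf43*, array 3 was again the low one, at 0.08 against 0.16 to 0.17, with a gap of 0.902 of the range. In all, 29 probes were looked at in this way and 2 passed, where chance passes about 1 in 20.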

How the results depend on the processing

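The ratio of *cebpd* lay between 3.45 and 4.29 under the alternatives, with 3.45 to 3.69 when an array was left out and 4.29 with median centring in place of loess. Median centring, which shifted all probes, also turned the sign of *cebpa* to 0.63, *cebpb* to 0.37, *cebpg* to 0.53 and *cebpz* to 0.32, of the other 2 *cebpg* probes to 0.62 and 0.54, and of the other *cebpz* probe to 0.47; the cause was not tested. Leaving out arrays turned the sign of values near 0: *cebpg* A_73_P503963 to 0.011 without replicate 1 and 0.0094 without replicate 3 (range −0.051 to 0.011), and *cebpz* A_73_P415321 to 0.0022 without replicate 4 (range −0.23 to 0.0022). Over the 7 lists, the 12 genes called as higher and 3 as lower became 65 higher with median centring, 7 and 1 with no filter on dim probes, 20 and 5 with an intensity trend and robust prior, 0 and 0 with the methods' t-test after adjustment, under which no probe on the arrays passed, 25 and 7 with the same test at the methods' criterion, added after seeing the data, 24 and 7 with a separate-channel fit, and 7 and 0 with a gene's probes averaged. With an array left out they ranged from 0 to 3 higher and 0 to 0 lower, with fewer samples. Calls over all tested probes changed too, from 639 higher and 439 lower after loess. They were 10013 and 712 with median centring, 561 and 369 with no filter, and 974 and 692 with the trend and robust prior. A separate-channel fit gave 1736 and 1462, and averaging a gene's probes 348 and 262. With an array left out they ranged from 4 to 65 higher and 0 to 31 lower. Nothing is read from the changes in the list counts. Of all calls, 59.3% were higher after loess and 93.4% with median centring. The test of log ratios against 0 is itself paired within arrays. No other replicate block was fitted, since there is 1 group of ratios. Dim signals limit the *cebpa* probe left untested, the dim *cebpb* probe and *rnf43*.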
